A study of Mus musculus with 6 samples.

Results

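Extracellular adenosine is made, removed, moved and sensed by a small set of proteins, and 10 mouse genes that encode them were followed here in pancreatic stellate cells (PSCs) at low and at ambient oxygen. The genes were Entpd1, Entpd2, Enpp1 and Nt5e, which encode surface enzymes that break down ATP and AMP, Ada and Adk, which encode enzymes that remove adenosine, the nucleoside transporter gene Slc29a1, and the adenosine receptor genes Adora1, Adora2a and Adora2b. They were chosen by name, with earlier results of these data known. The Ensembl identifiers of these 10 genes in the count table were found through GENCODE release M21. All 10 were found among the 55426 features of the table, and all 10 were among the 16207 genes that passed the filter on low counts and were tested.

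PSCs are mesenchymal cells of the pancreas that can turn into cancer-associated fibroblasts around a tumor. RNA came from primary PSCs of wild-type C57BL/6 mice, grown in Matrigel on a transwell insert above mT3 organoids, which were derived from a mouse pancreatic ductal adenocarcinoma (PDAC). All 6 samples carried the same PSC and mT3 combination and differed in the oxygen of the last 48 h, which was 21% in 3 normoxia samples and 1% in 3 hypoxia samples. PSCs without organoids were not analysed here, so the effect of oxygen was seen only in coculture, and the organoids in the lower compartment were exposed to the same oxygen. The sources used here do not say whether the 3 samples of a group came from separate PSC isolations, and the p-values measure the spread between these samples, which may be technical.

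ATP that leaves a cell is a danger signal, and enzymes on the cell surface turn it into adenosine, which mostly dampens immune cells. Members of the NTPDase family (Entpd genes) strip phosphates from ATP and ADP, Enpp1 cuts ATP straight to AMP and pyrophosphate, and Nt5e (CD73) turns AMP into adenosine. Cells then take adenosine up through equilibrative transporters such as Slc29a1 (ENT1), phosphorylate it with adenosine kinase (Adk) or deaminate it with adenosine deaminase (Ada), while surface receptors read what remains outside. Adora2a and Adora2b couple to the stimulatory G protein and raise cAMP, and Adora1 couples to inhibitory G proteins and lowers it. CD73 and the receptor encoded by Adora2a have been studied as immune checkpoints in cancer, and several genes of the pathway are known to respond to hypoxia in other cells.

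Library totals ran from 24749601 to 25914892 counts in normoxia and from 25847719 to 31925054 in hypoxia. Levels are given in CPM, which are counts per 1000000 counts of TMM-scaled library size, and 3 counts, taken as the detection floor, corresponded to 0.0943 to 0.122 CPM. A gene was called when its adjusted p in edgeR's quasi-likelihood test was under 0.05 and its linear fold change went beyond 1.5. As a check of the labels, all 10 known hypoxia-inducible genes on the list were called higher at 1% O2, with a median log2 fold change of 2.01. As a check of the cell type, the 10 fibroblast and stellate cell markers were all tested and summed to between 28424 and 35619 CPM in normoxia and between 30459 and 35302 CPM in hypoxia, with 2 called higher (Pdgfra and Pdpn) and 2 called lower (Lum and Thy1). The epithelial marker Epcam had 1 count in a single normoxia library and 0 in the other 5. Of 8 epithelial markers 2 were tested, and Krt19 was called higher, so that the list summed to between 0.835 and 2.31 CPM in normoxia and between 21.1 and 24.8 CPM in hypoxia, and its part in the results was not tested. Of 8 T, B and NK cell markers, Cd3e, Cd8a, Ms4a1 and Nkg7 had 0 counts in all 6 samples and the other 4 had some. Of the 8, Cd4 alone was tested and was not called (log2 fold change 0.59), and the list summed to between 0.385 and 1.44 CPM in normoxia and between 1.24 and 1.54 CPM in hypoxia.

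The promoters of 4 of the genes are printed because these genes had the largest rise (Enpp1), the highest level per length (Adora2b and Entpd2) or the step from AMP to adenosine (Nt5e). Each window runs 5′ to 3′ on the strand of the gene, from 250 bases before to 50 bases after a RefSeq transcription start, with GRCm38.p6 coordinates. Capitals mark the letters ACGTG or GCGTG, the core to which hypoxia-inducible factors bind, read on either strand, so that CACGT and CACGC are the same letters on the opposite strand.
Enpp1, minus strand, chr10:24712110-24712409: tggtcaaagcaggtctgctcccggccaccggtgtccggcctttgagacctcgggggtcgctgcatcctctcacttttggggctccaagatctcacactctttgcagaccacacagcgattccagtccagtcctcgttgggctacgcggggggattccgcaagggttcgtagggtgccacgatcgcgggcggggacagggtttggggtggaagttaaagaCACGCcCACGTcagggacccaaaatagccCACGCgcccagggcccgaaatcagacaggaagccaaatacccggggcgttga
Adora2b, plus strand, chr11:62248734-62249033: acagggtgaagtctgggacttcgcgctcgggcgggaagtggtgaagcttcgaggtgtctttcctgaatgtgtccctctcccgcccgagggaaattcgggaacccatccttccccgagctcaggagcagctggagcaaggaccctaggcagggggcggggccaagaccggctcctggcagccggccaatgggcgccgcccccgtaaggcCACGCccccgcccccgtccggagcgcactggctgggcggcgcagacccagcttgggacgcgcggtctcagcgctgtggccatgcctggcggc
Entpd2, plus strand, chr2:25395624-25395923: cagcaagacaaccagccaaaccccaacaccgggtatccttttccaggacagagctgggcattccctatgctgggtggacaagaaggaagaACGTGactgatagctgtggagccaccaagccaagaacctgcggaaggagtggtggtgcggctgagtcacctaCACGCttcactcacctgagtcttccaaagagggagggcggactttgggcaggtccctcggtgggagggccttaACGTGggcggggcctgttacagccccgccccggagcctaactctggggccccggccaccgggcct
Nt5e, plus strand, chr9:88327359-88327658: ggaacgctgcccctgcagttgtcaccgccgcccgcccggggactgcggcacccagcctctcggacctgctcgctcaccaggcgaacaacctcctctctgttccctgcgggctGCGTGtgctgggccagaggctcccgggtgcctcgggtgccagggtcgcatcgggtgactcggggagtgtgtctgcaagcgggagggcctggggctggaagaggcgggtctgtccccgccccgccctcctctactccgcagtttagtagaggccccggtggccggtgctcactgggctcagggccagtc

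The Enpp1 window held 1 ACGTG and 2 GCGTG matches, all within 31 bases before the start and all on the opposite strand. The Adora2b window held 1 GCGTG match, 42 bases before the start. Entpd2, which fell at 1% O2, had as many matches as Enpp1, with ACGTG 160 and 15 bases before the start and GCGTG 88 bases before it. The Nt5e window held 1 GCGTG match, 138 bases before a start that lies downstream of the GENCODE gene start. RefSeq windows were found for 9 of the 10 genes, 19 windows in all because several genes have more than 1 start, and 13 of the 19 held at least 1 match. Across all 32851 mouse promoter windows of this length, 19.6% held ACGTG, 32.4% held GCGTG and 43.8% held either. A match of 5 letters describes the sequence only, and no binding was measured.

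Of the 10 adenosine genes, 8 were called, 3 higher and 5 lower at 1% O2. Of all 16207 tested genes, 34.2% were called, 18.9% higher and 15.3% lower. The 10 genes were chosen with earlier results of these data known, so these shares are set side by side as a description only. Enpp1, Adora2a and Adora2b rose, while Nt5e, Entpd1, Entpd2, Adk and Adora1 fell, and Ada and Slc29a1 did not pass. The median log2 fold change of the 10 genes was -0.45, beside -0.004 over all tested genes. In 9 of the 10 genes the 3 samples of a group did not overlap the 3 of the other group, which was also the case for 68.9% of all tested genes.

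**Figure D1:**
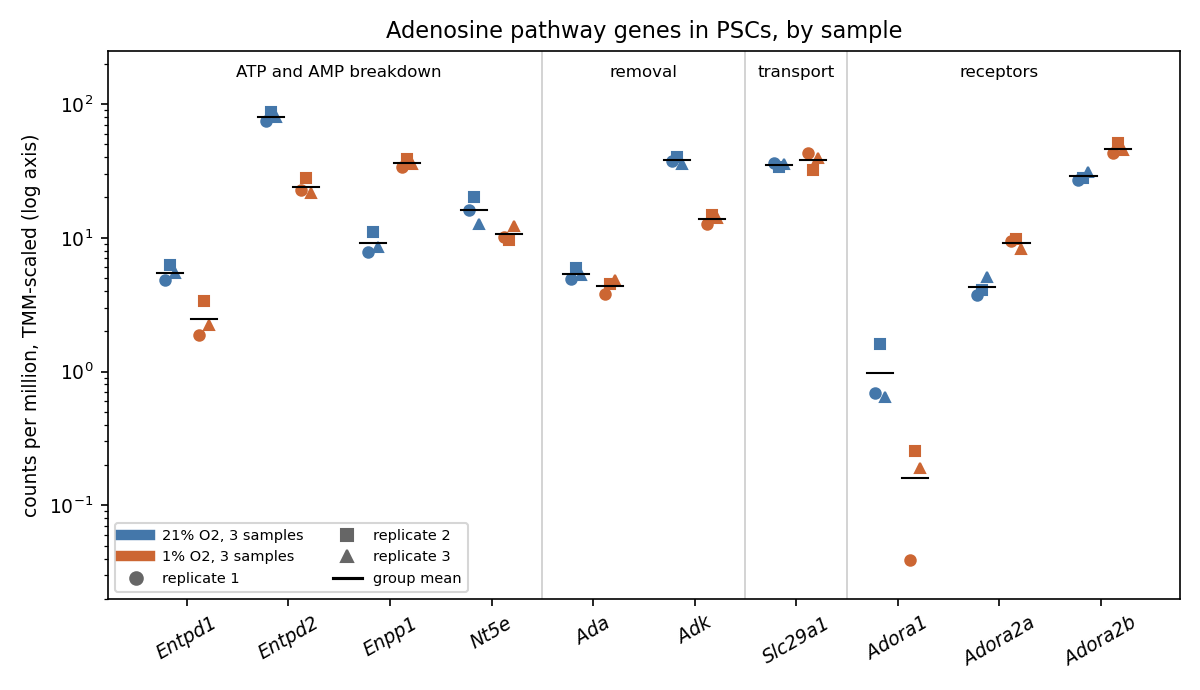
CPM of the 10 adenosine genes (log axis) in each of the 3 samples at 21% O2 and the 3 at 1% O2, with symbols for replicate numbers and bars for group means. The groups overlap only for Slc29a1, and Adora1 sits near or under 1 CPM in nearly all samples.

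Entpd2, the NTPDase that favors ATP over ADP, was the most abundant of the 4 breakdown enzymes per length in normoxia and fell at 1% O2. Entpd2 (ENSMUSG00000015085, chr2:25395874-25401321, plus strand) stood at 74.2, 86.5 and 80.5 CPM in normoxia replicates 1 to 3 and at 22.6, 28.1 and 21.5 CPM in hypoxia replicates 1 to 3. The lowest normoxia sample was far above the highest hypoxia sample. The mean went from 80.4 ± 6.14 to 24.1 ± 3.53 CPM (SD, n = 3 each), which was 3.34-fold lower, with a log2 fold change of -1.74 ± 0.10 (SE; adjusted p = 1.385e-06, edgeR). Entpd2 shares 612 exon bases on the same strand with Npdc1, whose counts were 3309, 3399 and 3409 in normoxia and 2888, 3880 and 3903 in hypoxia and which was not called (log2 fold change -0.13, adjusted p = 0.0738, edgeR). Reads in those bases could have been assigned to either gene.

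Entpd1 encodes CD39, the NTPDase best known from leukocytes and vascular endothelium. Entpd1 (ENSMUSG00000048120, chr19:40612366-40741602, plus strand) was much less abundant, at 4.81, 6.22 and 5.44 CPM in the normoxia samples and 1.88, 3.35 and 2.23 CPM in the hypoxia samples. Every hypoxia sample was below every normoxia sample. The mean fell from 5.49 ± 0.708 to 2.49 ± 0.766 CPM (SD, n = 3 each). The log2 fold change was -1.13 ± 0.22 (SE; adjusted p = 0.00173, edgeR).

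Markers of macrophages and other leukocytes moved in the same direction as Entpd1. Of 15 such markers, all tested and none at 0, 10 were called lower and none higher, with a median log2 fold change of -1.05, and Ptprc, Csf1r, Cd14, Itgam and Mrc1 did not pass. Their sum was 1033, 1830 and 1438 CPM in normoxia and 532, 962 and 653 CPM in hypoxia, so that the groups did not overlap. Per 1000 CPM of these markers, Entpd1 was 4.66, 3.40 and 3.78 in normoxia and 3.54, 3.48 and 3.42 in hypoxia, and on this scale the groups overlapped. For Entpd2 the same ratio was 71.8, 47.2 and 56.0 in normoxia and 42.5, 29.2 and 32.9 in hypoxia, and the groups did not overlap. The marker sum itself fell, so overlap or its absence mainly shows whether a gene fell about as much as the markers or more. It does not show which cells made the RNA. In RNA from bulk cultures, fewer cells of a type and less RNA per cell cannot be told apart. The part of cells with these markers in the falls of Entpd1 and Entpd2 was not tested. Of 8 endothelial markers, 7 were tested, 2 were called higher (Tek and Vwf) and 2 lower (Kdr and Cldn5), and their sum ran from 15.7 to 21.8 CPM in normoxia and from 21.8 to 30.9 CPM in hypoxia.

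**Figure D2:**
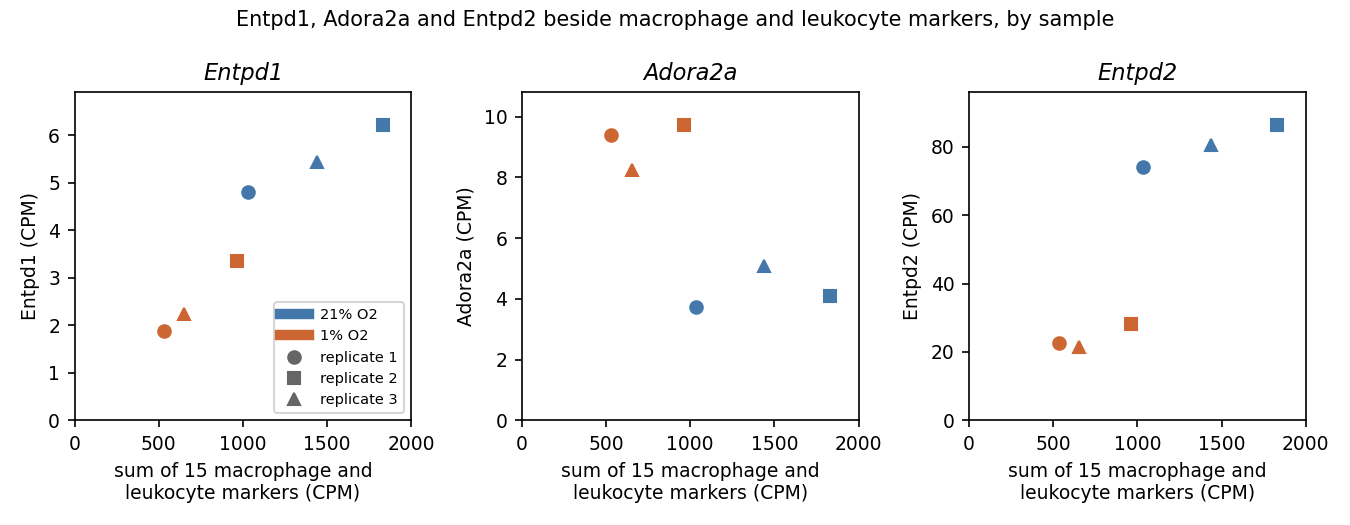
CPM of Entpd1, Adora2a and Entpd2 (vertical axes) against the summed CPM of 15 macrophage and leukocyte markers (horizontal axes) in each of the 6 samples. Entpd1 follows the marker sum from 1.88 CPM at a sum of 532 to 6.22 CPM at a sum of 1830, whereas Adora2a is higher in the 3 hypoxia samples, which have the lowest sums.

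Enpp1 encodes an ectonucleotide pyrophosphatase that also hydrolyses cGAMP, the messenger of the STING pathway, and it had the largest rise of the 10 genes. Enpp1 (ENSMUSG00000037370, chr10:24637914-24712159, minus strand) was measured at 7.85, 11.0 and 8.48 CPM in normoxia and at 33.8, 39.1 and 35.5 CPM in hypoxia. All hypoxia samples lay far above all normoxia samples. The mean rose from 9.11 ± 1.67 to 36.1 ± 2.71 CPM (SD, n = 3 each), 3.96-fold, with a log2 fold change of 1.99 ± 0.12 (SE; adjusted p = 1.609e-06, edgeR).

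Nt5e, the gene of CD73, fell by an amount close to the fold threshold. Nt5e (ENSMUSG00000032420, chr9:88327197-88372092, plus strand) had 16.0, 20.2 and 12.6 CPM in the normoxia samples and 10.1, 9.57 and 12.3 CPM in the hypoxia samples. The groups did not overlap, but the lowest normoxia sample and the highest hypoxia sample were nearly level. The mean went from 16.3 ± 3.77 to 10.7 ± 1.46 CPM (SD, n = 3 each), with a log2 fold change of -0.61 (SE 0.17, 95% confidence interval -0.99 to -0.23, adjusted p = 0.011, edgeR). The fold change no longer reached 1.5 without normoxia replicate 2 (log2 fold change -0.43), without hypoxia replicate 1 (-0.57) or without hypoxia replicate 2 (-0.54), with adjusted p-values in edgeR of 0.0243, 0.0375 and 0.0417. Per 1000 CPM of the macrophage and leukocyte markers, Nt5e was 15.5, 11.0 and 8.78 in normoxia and 19.0, 9.95 and 18.9 in hypoxia, and the groups overlapped. The marker sum fell as well, so this overlap does not show which cells made Nt5e RNA, which was not tested.

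The makeup of the ATP-cleaving enzymes was set out per length, as CPM per kilobase of annotated exon, because only such values can be compared between genes. The sum of Entpd1, Entpd2 and Enpp1 was 36.5, 42.8 and 39.6 CPM per kilobase in normoxia and 14.3, 17.6 and 13.95 in hypoxia. Entpd2 made up 94.9% to 95.5% of that sum in normoxia and 72.3% to 74.9% in hypoxia. Its level could hold reads from the 612 exon bases that it shares with Npdc1. The sum leaves out other surface enzymes. Of these, Enpp3 had a mean of 1.85 CPM per kilobase in normoxia and 4.17 in hypoxia, and Alpl 4.85 and 2.40. The shares therefore hold only among Entpd1, Entpd2 and Enpp1. The ratio of Entpd2 to Enpp1 was 45.5, 37.9 and 45.8 in normoxia and 3.23, 3.46 and 2.91 in hypoxia. An exact two-sided permutation test of 3 samples against 3 cannot go below p = 0.1, so these ratios are given as descriptions.

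Adk, which phosphorylates adenosine back to AMP inside the cell, fell, whereas the change of Ada did not pass the test. Adk (ENSMUSG00000039197, chr14:21052574-21448569, plus strand) was at 37.6, 40.0 and 35.9 CPM in normoxia and at 12.6, 14.7 and 13.99 CPM in hypoxia. The samples within each group were close together and the groups far apart. The mean dropped from 37.8 ± 2.06 to 13.8 ± 1.10 CPM (SD, n = 3 each), 2.74-fold lower, with an adjusted p of 8.282e-07 in edgeR. The SE of its log2 fold change, 0.079, was the smallest of the 10 genes.

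Ada deaminates adenosine to inosine. Ada (ENSMUSG00000017697, chr2:163726584-163750239, minus strand) was at 4.93, 5.92 and 5.23 CPM in normoxia and at 3.81, 4.50 and 4.87 CPM in hypoxia, with the groups just apart. Its log2 fold change of -0.28 had a 95% confidence interval from -0.62 to 0.05 (adjusted p = 0.122, edgeR). The ratio of Adk to Ada per kilobase of exon was 1.79, 1.58 and 1.61 in normoxia and 0.775, 0.769 and 0.674 in hypoxia. This order within the hypoxia samples rests on annotated exon lengths of 8526 bases for Adk and 2002 bases for Ada. In CPM, Adk was above Ada in every sample of both groups. The transcript lengths that the cells used were not tested.

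Slc29a1 encodes ENT1, the equilibrative transporter that carries adenosine across the plasma membrane in either direction. Slc29a1 (ENSMUSG00000023942, chr17:45585200-45599606, minus strand) was at 36.3, 33.9 and 35.7 CPM in normoxia and at 42.7, 32.2 and 39.7 CPM in hypoxia. The groups overlapped, since hypoxia replicate 2 was the lowest of all 6 samples and hypoxia replicate 1 the highest. The log2 fold change was 0.11, with a 95% confidence interval from -0.11 to 0.33 (adjusted p = 0.334, edgeR).

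**Figure D3:**
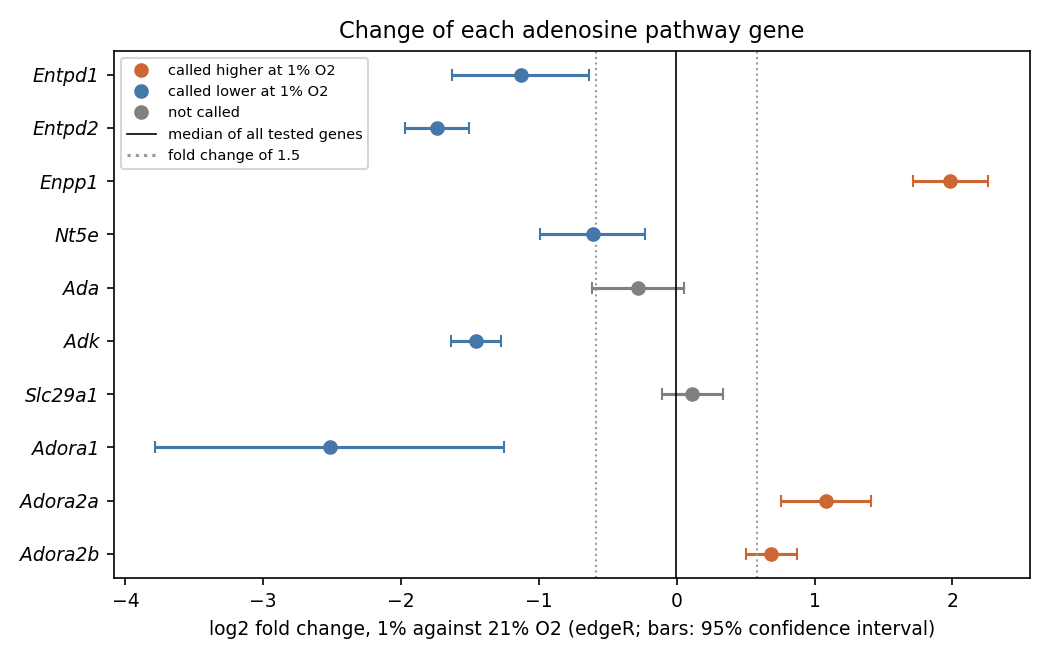
Log2 fold change at 1% against 21% O2 for each of the 10 genes, with 95% confidence intervals from edgeR, the 1.5-fold threshold as dotted lines and the median of all tested genes as a solid line. The intervals of Ada and Slc29a1 cross 0, that of Adora1 is the widest, those of Nt5e and Ada span the lower threshold, and that of Adora2b spans the upper threshold.

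Adora2b, the gene of the low-affinity stimulatory receptor, was the most abundant adenosine receptor gene and rose. Adora2b (ENSMUSG00000018500, chr11:62248984-62266453, plus strand) was at 27.1, 28.1 and 31.1 CPM in normoxia and at 42.8, 50.9 and 45.2 CPM in hypoxia. All hypoxia samples were above all normoxia samples. The mean rose from 28.8 ± 2.07 to 46.3 ± 4.18 CPM (SD, n = 3 each), 1.61-fold, with a log2 fold change of 0.69 (SE 0.082, 95% confidence interval 0.50 to 0.87, adjusted p = 8.944e-05, edgeR).

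Adora2a encodes the high-affinity stimulatory receptor, which restrains T cells and other leukocytes. Adora2a (ENSMUSG00000020178, chr10:75316877-75334784, plus strand) had 3.73, 4.10 and 5.07 CPM in normoxia and 9.39, 9.73 and 8.23 CPM in hypoxia, again without overlap. The mean went from 4.30 ± 0.691 to 9.12 ± 0.785 CPM (SD, n = 3 each), 2.12-fold, with an adjusted p of 0.00017 in edgeR. Adora2a was higher in the hypoxia samples, where the summed macrophage and leukocyte markers were lower. Per 1000 CPM of these markers Adora2a was 3.62, 2.24 and 3.53 in normoxia and 17.6, 10.1 and 12.6 in hypoxia. The fall of the marker sum widens this ratio beyond the rise of the gene, and the cells that made its RNA were not tested.

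Adora1, the gene of the inhibitory A1 receptor, was scarcely detected. Adora1 (ENSMUSG00000042429, chr1:134199223-134235431, minus strand) had 18, 42 and 16 counts in normoxia and 1, 8 and 6 counts in hypoxia, which were 0.693, 1.59 and 0.649 CPM and 0.0393, 0.255 and 0.189 CPM. All hypoxia samples were below all normoxia samples, and hypoxia replicate 1 lay under the floor of 3 counts. The log2 fold change was -2.52 with a 95% confidence interval from -3.78 to -1.25 (adjusted p = 0.00357, edgeR), so that its size is known only within wide limits. The inhibitory A3 receptor gene Adora3 had 0, 5 and 2 counts in normoxia and 0, 4 and 6 in hypoxia and was not tested, because it did not pass the filter on low counts.

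Summed over Adora1, Adora2a and Adora2b, the receptor level per length was 16.0, 16.8 and 18.6 CPM per kilobase in normoxia and 26.3, 30.8 and 27.2 in hypoxia. Adora2b held 90.4% to 91.6% of this sum in normoxia and 88.3% to 89.99% in hypoxia. Adora2a held 7.61% to 8.90% in normoxia and 9.89% to 11.7% in hypoxia, and Adora1 0.603% to 1.64% and 0.0259% to 0.143%. The stimulatory receptor genes thus made up nearly all of the receptor transcript at either oxygen level. The ratio of Adora2b to Adora2a was 10.2 to 12.05 in normoxia and 7.56 to 9.10 in hypoxia.

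Ordered by mean level per length, the 10 genes in normoxia ran from Entpd2 (37.8 CPM per kilobase) and Adora2b (15.6) through Slc29a1 (8.80), Adk (4.44), Ada (2.68), Nt5e (1.89), Adora2a (1.40), Entpd1 (0.984) and Enpp1 (0.889) to Adora1 (0.169). Nt5e overlapped Adora2a, and Entpd1 overlapped Enpp1, while other neighbors in this order were apart in all 3 samples. In hypoxia the order was Adora2b (25.1 CPM per kilobase), Entpd2 (11.3), Slc29a1 (9.53), Enpp1 (3.52), Adora2a (2.98), Ada (2.19), Adk (1.61), Nt5e (1.24), Entpd1 (0.446) and Adora1 (0.0278). Only Entpd2 and Slc29a1 overlapped there. Enpp1 thus moved from the ninth place to the fourth and Adora2b took the top place from Entpd2. Lengths are those of all annotated exons, so a gene whose cells use a shorter transcript is placed too low.

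**Figure D4:**
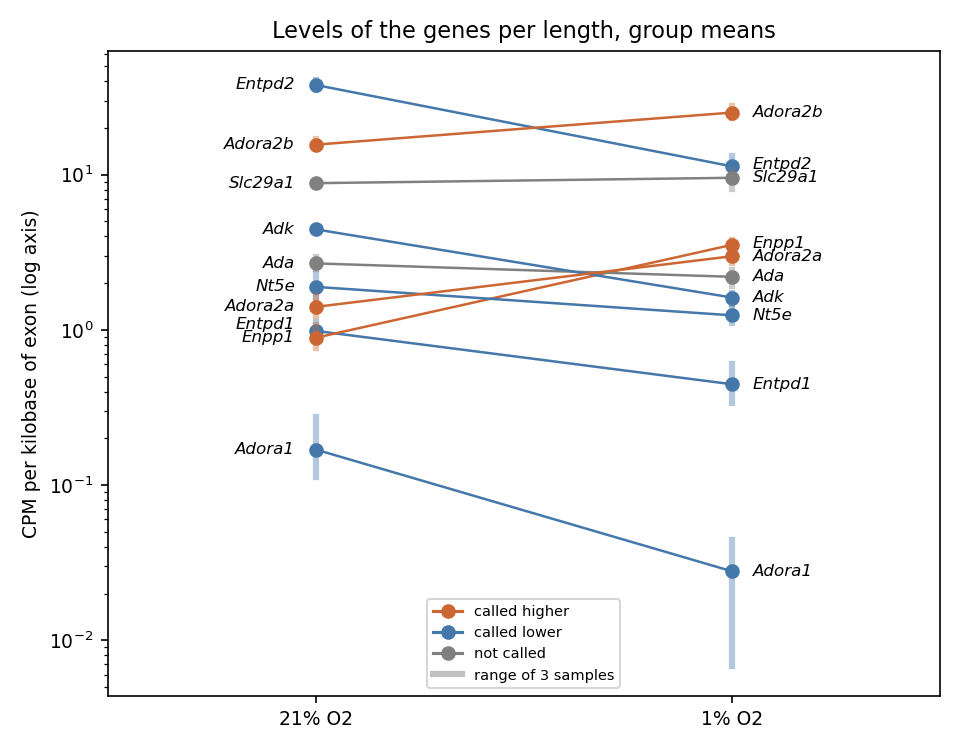
Mean CPM per kilobase of exon (log axis) for each of the 10 genes at 21% and 1% O2, joined by a line colored by whether the gene was called, with bars for the range of 3 samples. Entpd2 falls from 37.8 to 11.3, Adora2b rises from 15.6 to 25.1, and Enpp1 crosses 5 of the other genes.

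Genes that feed or drain the same nucleotides were read from the same test. The counts of each list below stand beside the 34.2% of all 16207 tested genes that were called, 18.9% higher and 15.3% lower. Of 7 other enzymes that cleave nucleotides at the surface or outside the cell, 4 were tested, and 1 was called higher and 2 lower. Enpp3, an ectonucleotide pyrophosphatase related to Enpp1, rose (11.1 ± 0.827 to 25.1 ± 2.38 CPM, SD, n = 3 each, log2 fold change 1.18, adjusted p = 8.78e-06, edgeR). Alpl, the tissue-nonspecific alkaline phosphatase that also dephosphorylates AMP, fell by 1.02 on the log2 scale (adjusted p = 0.000246, edgeR). Cd38, an NAD-consuming ectoenzyme, fell by 1.24 on the log2 scale (adjusted p = 3.48e-06, edgeR). Among the 4 tested NTPDases that act inside the cell or are secreted, Entpd4 was called higher (log2 fold change 0.67, adjusted p = 7.05e-06, edgeR) and none lower.

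Channels that can release ATP included the strongest rises around the pathway. Of 6 listed, 4 were tested, 2 were called higher and none lower. The connexin gene Gja1 went from 51.6 ± 5.15 to 260 ± 1.32 CPM (SD, n = 3 each), or by 2.33 on the log2 scale (adjusted p = 5.54e-08, edgeR). Panx2 had 7, 8 and 12 counts in normoxia and 47, 91 and 95 in hypoxia (log2 fold change 2.87, adjusted p = 6.02e-05, edgeR). Panx1, the pannexin best known for ATP release, was not called, with means of 24.9 CPM in normoxia and 21.3 CPM in hypoxia.

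Of 14 P2 receptors, which sense ATP and other nucleotides themselves, 11 were tested, 2 were called higher and 4 lower. P2ry2, a receptor for ATP and UTP, rose by a log2 fold change of 1.12 (adjusted p = 3.83e-05, edgeR). P2ry6, a receptor for UDP, rose by 0.92 on the log2 scale (adjusted p = 0.00327, edgeR). P2rx6 fell by 1.38 on the log2 scale (adjusted p = 1.54e-05, edgeR). The other genes called lower were P2rx5, P2ry12 and P2ry13, named after their values were seen, at 0.979 ± 0.282 CPM (SD, n = 3) in normoxia for P2ry12 and at 0.187 ± 0.0669 CPM in hypoxia. Of the macrophage and leukocyte markers, 10 of 15 were called lower. The part of such cells in the values of the P2 receptors, whether called higher or lower, was not tested.

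Inside the cell, 15 of 18 genes of adenosine and purine handling were tested, and 3 were called higher, beside 18.9% of all tested genes. Ak4, a mitochondrial adenylate kinase, had a log2 fold change of 2.01 (44.5 ± 2.04 to 179 ± 9.65 CPM, SD, n = 3 each, adjusted p = 5.14e-08, edgeR). The AMP deaminase gene Ampd3, whose product turns AMP into IMP, rose by 1.73 on the log2 scale (adjusted p = 1.35e-07, edgeR). Nt5c2, a cytosolic nucleotidase that prefers IMP, rose by 0.72 (adjusted p = 1.61e-05, edgeR). Ahcy, which releases adenosine from S-adenosylhomocysteine, fell by 0.99 on the log2 scale (adjusted p = 5.90e-06, edgeR).

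Of 6 other nucleoside transporters 3 were tested, and Slc29a2 (ENT2) was called higher and the concentrative transporter Slc28a2 lower. Neither call was stable. Slc29a2, with a log2 fold change of 0.75 (adjusted p = 0.0175, edgeR), was no longer called without normoxia replicate 1 or 3 or hypoxia replicate 2 or 3. Slc28a2, with 30, 51 and 31 counts in normoxia and 11, 33 and 25 in hypoxia (adjusted p = 0.0451, edgeR), was no longer called without normoxia replicate 2 or 3, without hypoxia replicate 1 or 3, or in DESeq2.

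Downstream of the receptors, 12 of 13 genes of cAMP production were tested, 1 was called higher and 3 lower. The share called, 33.3%, was close to the 34.2% of all tested genes. The adenylyl cyclase gene Adcy5, inhibited through Gi-coupled receptors, fell from 66.6 ± 5.001 to 11.6 ± 1.301 CPM (SD, n = 3 each), with a log2 value of -2.53 (adjusted p = 8.97e-08, edgeR). Adcy1 fell by 1.00 (adjusted p = 0.00196, edgeR) and Adcy4 rose by 1.18 (adjusted p = 2.36e-05, edgeR), both on the log2 scale. Gnai1, an inhibitory G protein subunit, fell by 1.10 on the log2 scale (adjusted p = 0.00662, edgeR). Its normoxia samples stood at 13.4, 26.7 and 12.8 CPM, and without normoxia replicate 2 the log2 fold change was -0.68 (adjusted p = 0.003, edgeR). The stimulatory subunit gene Gnas was not called, at 1051 CPM in normoxia and 927 CPM in hypoxia.

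**Figure D5:**
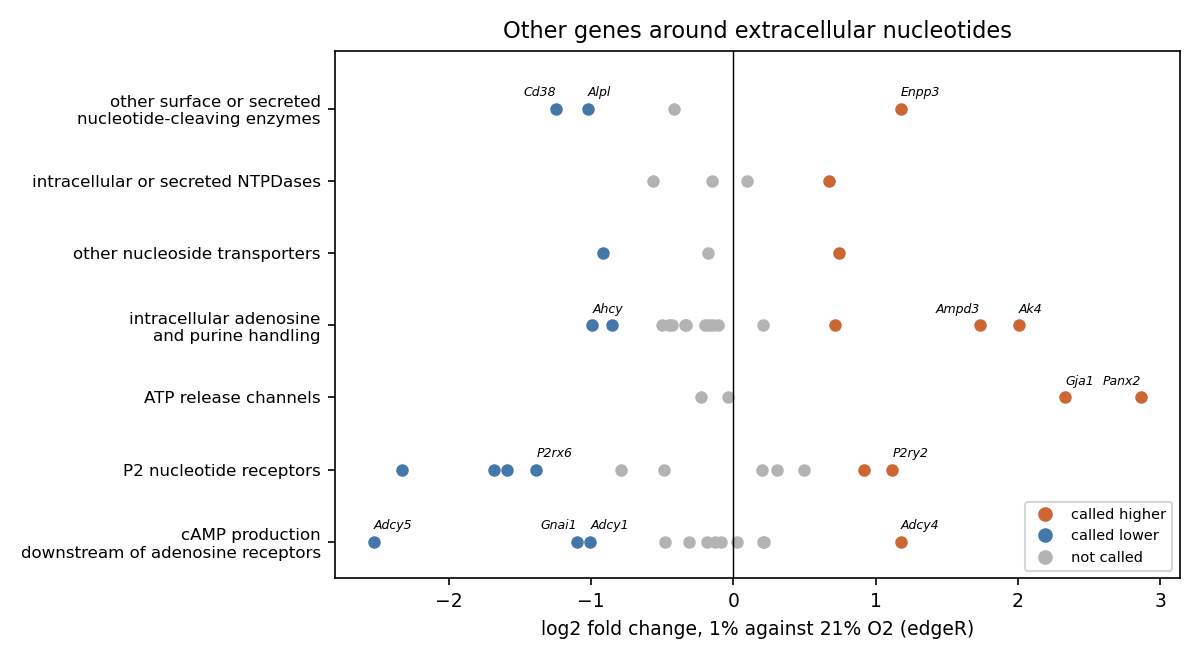
Log2 fold change at 1% against 21% O2 in edgeR for each tested gene of 7 lists around extracellular nucleotides, 1 row a list, colored by call. Of the labelled genes, Panx2 (2.87) and Gja1 (2.33) lie farthest to the right and Adcy5 (-2.53) farthest to the left.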

How the data were processed

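RNA of 6 samples of mouse PSCs was measured, 3 at 21% O2 and 3 at 1% O2. The authors sequenced poly(A) libraries on a NovaSeq instrument, trimmed adapters, mapped reads to GRCm38 with STAR 2.6.1b and assigned them to genes with RSEM 1.3.1. The annotation release and strand setting are not given in the sources used here, so reads from antisense genes cannot be told apart. Gm17080 (0 to 8 counts a sample) lies antisense to Slc29a1, and Mybph (0 counts in every sample) lies antisense to Adora1. The deposited values are expected counts, not normalized between samples. All were whole (0 with a fraction), so rounding changed nothing. Every sample column was matched by its name. Of the 55426 identifiers, 55240 were found in GENCODE M21, which gave names, coordinates and exon lengths, and 186 were not.

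Counts were filtered with filterByExpr, normalized with TMM and tested with edgeR 4.0.16 (R 4.3.3), with Benjamini-Hochberg adjustment over all 16207 tested genes. The SE of a log2 fold change was computed as the change over the root of its F value. The self-test ran on simulated counts. Samples were grouped by the labels' oxygen level. Alternatives were the replicate number as a block, other normalizations, no filter, each sample left out, DESeq2 1.42.0, limma-voom (limma 3.58.1) and other fold thresholds. Detection floors cover counting error only. Replicates were compared with a chi-square test over genes, and no pair within a group agreed within sampling noise (5.68 to 22.5 per degree of freedom). The genes, lists and promoters were chosen with earlier results of these data known. Besides all 10 genes, up to 3 called genes in each direction with the largest fold change and a mean of at least 1 CPM were named from each list (1 such gene is not reported here), and marker genes were named where a count of 5 or fewer was given. Promoters came from RefSeq on GRCm38.p6.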

Additional observations from a re-analysis of the deposited data

How the results depend on the processing

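The calls of the 10 adenosine genes were recomputed under 13 alternatives, and 127 of 130 matched those reported, with 9 of the 10 genes matching in all 13. The exception was Nt5e without each of 3 samples, as given beside its values. Leaving out single samples gave 7 to 8 of the 10 genes called and 5226 to 5662 genes in all, against 8 and 5547. Slc29a1 was not called in any of these fits, although its adjusted p was 0.0248 in edgeR without hypoxia replicate 2, where the log2 fold change was 0.22. With no fold threshold 10168 of all genes were called, and with a 2-fold threshold 3156 and 6 of the 10 genes, since Nt5e and Adora2b have smaller changes. Of 260 such fits for the 20 genes that the naming rule picked from other lists, 250 matched, the exceptions being Slc29a2 and Slc28a2. The replicate number used as a block gave 5572 calls, 5467 of them shared, and the same 8 of the 10 genes. Same-numbered samples correlated in their deviations from the group means by 0.22, 0.19 and 0.05, so they were not taken as paired, although every sample correlated best with its own number. DESeq2 gave 5305 calls, and 5083 with the replicate block. With 3 samples a group, Adora1 is limited by its low counts.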
